A study of Mus musculus with 68 samples.

Results

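The second pharyngeal arch (PA2) was compared with the first (PA1) in wildtype mouse embryos at embryonic day 9.5 (E9.5), across all measured genes. The comparison rests on 9 of the 68 libraries of the series, chosen by their labels for arch, genotype and stage. PA1 was represented by 5 libraries, of embryos 1 to 5, and PA2 by 4, of embryos 1, 2, 3 and 5, so that 4 embryos gave both arches. The embryos of both groups carried the genotype label wildtype and the strain label CBA/Ca/J x C57BL/10, with no treatment named. The other groups of the series are the arches of other wildtype stages, from E9.0 to E10.5, and of embryos labelled Hoxa2-/-. Each arch was dissected by hand from 1 embryo, so a library holds every cell type of the dissected piece, and fewer cells of a type and less RNA per cell cannot be told apart.

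The pharyngeal arches are paired outgrowths beside the embryonic throat. Each has an outer covering of surface ectoderm, an inner lining of pharyngeal endoderm, a core of mesoderm and a filling of mesenchyme that comes from the cranial neural crest. PA1 forms the jaws and part of the middle ear, and PA2 forms the stapes, the styloid process and part of the hyoid bone. Neural crest that enters PA2 expresses the homeobox gene Hoxa2, which is needed for PA2 identity, whereas crest of PA1 is free of Hox expression. Pitx1 marks the oral side of PA1, and Nkx2-6 is a homeobox gene of the caudal pharyngeal endoderm.

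The 9 libraries held 11923843 to 20453485 recovered reads each. Values are given as CPM, which here are the deposited read counts after the authors' scaling by library size, and differences as PA2 minus PA1 on the log2(CPM + 1) scale, with the standard error of the limma fit. This scale understates the change of genes at low levels. A floor of 3 reads corresponded to 0.140 to 0.248 CPM, depending on the library. A gene is called higher or lower where its limma p, adjusted by the Benjamini-Hochberg method over all genes tested, was under 0.05.

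The labels matched the 3 markers. Hoxa2 (chr6:52162417-52164831, minus strand, mm10) was at 0.156, 0.285, 0.0683, 0.721 and 0.106 CPM in PA1 of embryos 1 to 5 and at 42.3, 49.2, 33.0 and 38.5 CPM in PA2 of embryos 1, 2, 3 and 5, the order kept throughout. Nkx2-6 (chr14:69171802-69175518, plus strand) was at 1.92, 2.05, 2.94, 3.45 and 0.318 CPM in PA1 and at 40.3, 41.2, 46.7 and 28.1 CPM in PA2. Pitx1 (chr13:55825051-55836192, minus strand) was at 48.8, 29.3, 39.0, 29.1 and 51.5 CPM in PA1 and at 0.327, 0.165, 0.762 and 1.71 CPM in PA2. None of the 3 genes overlapped between the arches.

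Of 18428 genes tested, 2333 were higher in PA2 (12.7%) and 2521 were lower (13.7%), together 26.3% by limma. Most of these differences were small: 2765 of the 4854 (57.0%) were under 0.5 on the log2 scale, and the median size was 0.46. The large ones lay mostly on one side, with 362 genes higher and 42 lower among the 404 (2.19% of all genes) that also differed by at least 1. Values of the 2 groups did not overlap for 8.67% of genes in the higher direction and 8.56% in the lower. The median difference over all genes was 0.01.

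**Figure D1:**
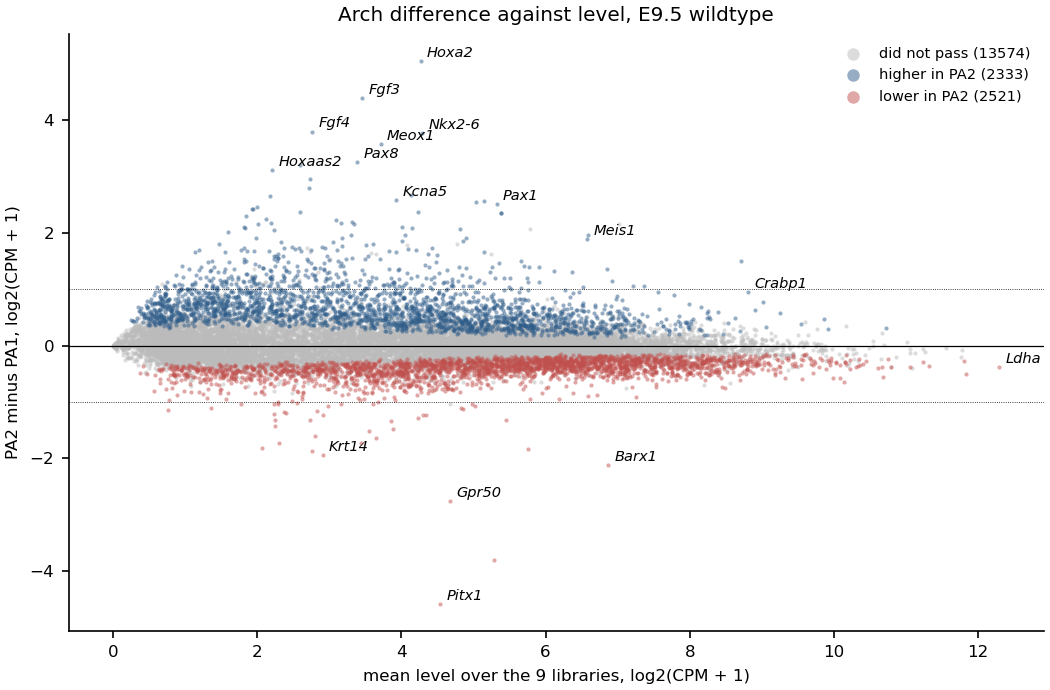
Difference between the arches (y axis, PA2 minus PA1 on the log2(CPM + 1) scale) against mean level over the 9 libraries (x axis, log2(CPM + 1)), 1 point per gene, with genes past the threshold coloured by direction and dotted lines at 1 and -1. The points beyond 1 are mostly above the upper line (362 genes) and few are below the lower one (42 genes).

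Some libraries stood apart, and the number of small differences moved with them. On the first principal component of the 9 libraries, which held 48.1% of the variance, PA1 of embryos 1 and 3 lay at -38.5 and -38.9, and PA2 of embryos 3 and 5 at 42.7 and 36.9. The other 5 lay between -17.2 and 19.5. The same libraries differed most by transcript length. Over 10 classes of genes by length, the median arch difference was -0.24 in the class of the shortest transcripts and 0.11 in that of the longest, while at E9.0 these classes had medians of 0.06 and -0.16. After a correction for length and GC content, 4454 genes passed (24.2%), 1607 higher (8.72%) and 2847 lower (15.4%), so that the higher share was 36.1% in place of 48.1%. Without PA2 of embryo 3, 1450 genes were higher (7.87%) and 1479 lower (8.03%), together 15.9%. With the embryo as a block, 32.3% passed, 15.4% higher and 16.8% lower. Of the 404 genes with a difference of at least 1, 396 passed in the same direction after that correction, 344 without PA1 of embryos 1 and 3, and 257 without PA2 of embryos 3 and 5. The former omission left 1758 genes past the threshold (9.54%, with 5.96% higher and 3.58% lower), and the latter 848 (4.6%, with 3.18% higher and 1.42% lower). The part of transcript length in single genes' differences was not tested apart from this correction.

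**Figure D2:**
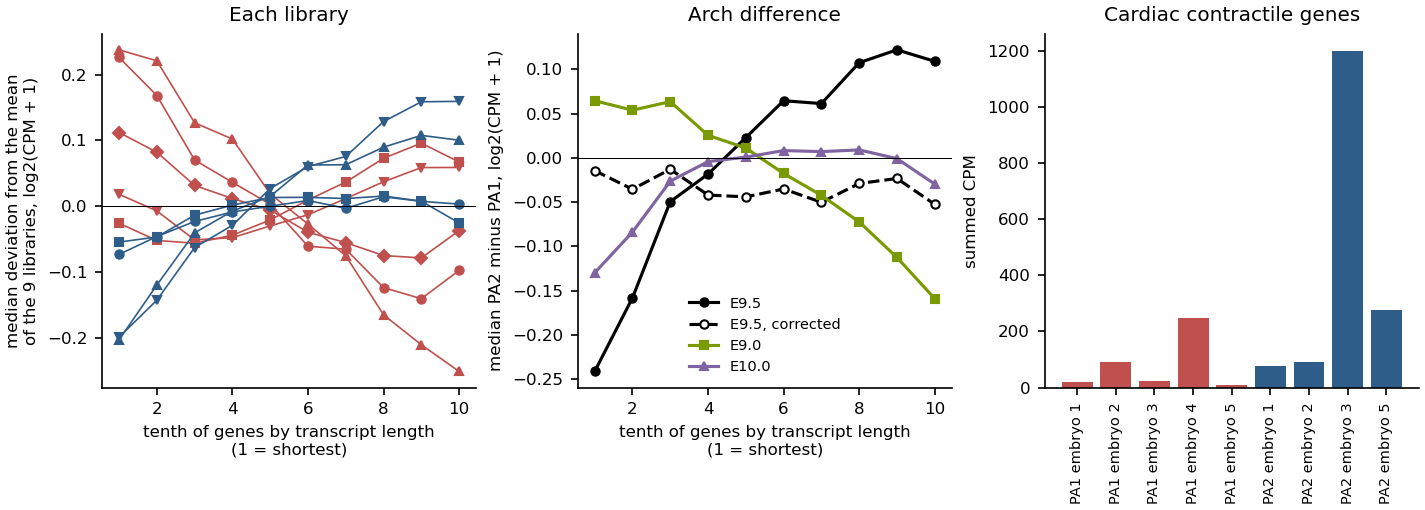
Left, median deviation of each library from the mean of the 9 (log2(CPM + 1)) in 10 classes of genes ordered by transcript length, with colours for the arch (red PA1, blue PA2) and marker shapes for the embryo (circle 1, square 2, triangle up 3, diamond 4, triangle down 5). Centre, median arch difference by length class at 3 stages and after correction; right, summed CPM of the cardiac contractile genes in each library, where PA2 of embryo 3 reaches 1201.

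Hox genes set the arches apart. Hox transcription factors give positional identity along the head-to-tail axis. Of 8 tested genes and antisense transcripts of the anterior Hox groups, 7 were higher in PA2 and none lower. Their median difference was 1.31 against 0.01 over all genes. The 11 measured members summed to 0.832 to 2.24 CPM in PA1 and 54.8 to 67.7 CPM in PA2. Members near 0 in PA1 could pass the filter of 1 CPM in 3 libraries only through other groups. The count and median are therefore not independent evidence of direction. Hoxa4, Hoxaas3, Hoxb3, Hoxb4 and Hoxd3 were listed but not tested. Hoxa2 itself had the largest difference of all genes past the threshold (5.05 ± 0.17, adjusted p = 1.3e-32). Its antisense neighbour Hoxaas2 (chr6:52165674-52169564, plus strand) was at 0, 0.114, 0, 0.0802 and 0 CPM in PA1 and at 8.08, 7.20, 7.21 and 9.80 CPM in PA2, with a difference of 3.12 ± 0.15, adjusted p = 2.5e-24. Hoxb2, the paralogue of Hoxa2 in another cluster, was at 0.260, 0.513, 0.342, 0.882 and 0.159 CPM in PA1 and at 5.51, 4.22, 5.49 and 5.24 CPM in PA2 (2.11 ± 0.15, adjusted p = 2.5e-16). The groups did not overlap for either gene. Hoxa3, the anterior gene of the next arch, was higher as well but ranged from 1.03 to 1.83 CPM in PA2 (1.12 ± 0.14, adjusted p = 9.0e-09). Hoxb1 (1.06 ± 0.26, adjusted p = 0.0017) and the antisense transcript Hoxb3os (1.41 ± 0.12, adjusted p = 9.9e-14) were higher too, at 0.827 to 1.98 CPM and 1.40 to 2.32 CPM in PA2. The 7 were higher without PA1 of embryos 1 and 3 as well, and 5 were without PA2 of embryos 3 and 5. In the annotation Hoxaas2 overlaps Hoxa3, and Hoxb3os overlaps Hoxb2. Whether counting used strand is not given in the sources used here, so reads of these partners cannot be told apart.

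The sequences upstream of Hoxa2 and of the neighbours Fgf3 and Fgf4 are shown because these genes had the largest differences in favour of PA2. Each run is the 250 bases before the RefSeq transcript start (GRCm38.p6), written 5′ to 3′ along the gene's strand. For Fgf3 and Fgf4 this start lies inside the longer gene body of the GENCODE annotation. Capitals mark matches on either strand to TGACAG, the core bound by MEIS proteins, to TGATNNAT, a site of PBX with HOX proteins, or to TAATCC, the bicoid type of site bound by PITX proteins. No 2 of these matches overlap.
Hoxa2 (chr6:52164832-52165081, minus strand): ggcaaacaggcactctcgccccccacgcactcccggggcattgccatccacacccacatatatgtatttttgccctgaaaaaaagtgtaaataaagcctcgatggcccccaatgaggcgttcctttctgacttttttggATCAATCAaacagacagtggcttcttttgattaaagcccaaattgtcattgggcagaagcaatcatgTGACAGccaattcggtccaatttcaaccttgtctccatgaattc
Fgf3 (chr7:144838362-144838611, plus strand): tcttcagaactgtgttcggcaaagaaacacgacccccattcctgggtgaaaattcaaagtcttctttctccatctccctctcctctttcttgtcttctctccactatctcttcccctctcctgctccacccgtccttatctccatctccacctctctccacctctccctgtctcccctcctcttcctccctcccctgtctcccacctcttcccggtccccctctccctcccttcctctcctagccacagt
Fgf4 (chr7:144861136-144861385, plus strand): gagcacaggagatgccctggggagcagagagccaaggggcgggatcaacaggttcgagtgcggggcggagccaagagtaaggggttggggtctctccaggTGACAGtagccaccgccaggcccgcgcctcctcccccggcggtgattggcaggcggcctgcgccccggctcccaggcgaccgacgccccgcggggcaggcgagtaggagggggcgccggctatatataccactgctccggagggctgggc
The Hoxa2 run holds 1 TGACAG, from base 207, and 1 TGATNNAT, from base 140 on the opposite strand. The Fgf4 run holds 1 TGACAG, from base 101, and the Fgf3 run holds none of the 3. Among 32851 upstream runs of the same length, TGACAG was found in 15.9%, TGATNNAT in 7.68% and TAATCC in 6.25%. A match is a description of these letters and not a bound site.

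Meis genes went with the Hox genes in direction. They belong to the TALE group, homeobox proteins that bind DNA together with Hox proteins. Of 9 tested members of this group 4 were higher in PA2 and none lower, a share of 44.4% beside 26.3% over all genes. Meis1 (chr11:18879817-19018985, minus strand) was at 43.5, 42.0, 30.5, 43.4 and 55.2 CPM in PA1 and at 151, 155, 165 and 164 CPM in PA2 (1.89 ± 0.14, adjusted p = 9.5e-16). The lowest PA2 library held more Meis1 than any PA1 library. Meis3 (0.72 ± 0.12, adjusted p = 1.4e-05) and Meis2 (0.39 ± 0.06, adjusted p = 6.0e-06) differed less, again without overlap. Pknox1 differed by 0.38 ± 0.12, adjusted p = 0.017, and its adjusted p was 0.076 without PA1 of embryo 3 and 0.057 without PA1 of embryo 4, and 0.12 after the length and GC correction. The 4 Pbx genes and Pknox2 did not pass, but with the embryo as a block Pbx4 did (0.42, adjusted p = 0.037).

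**Figure D3:**
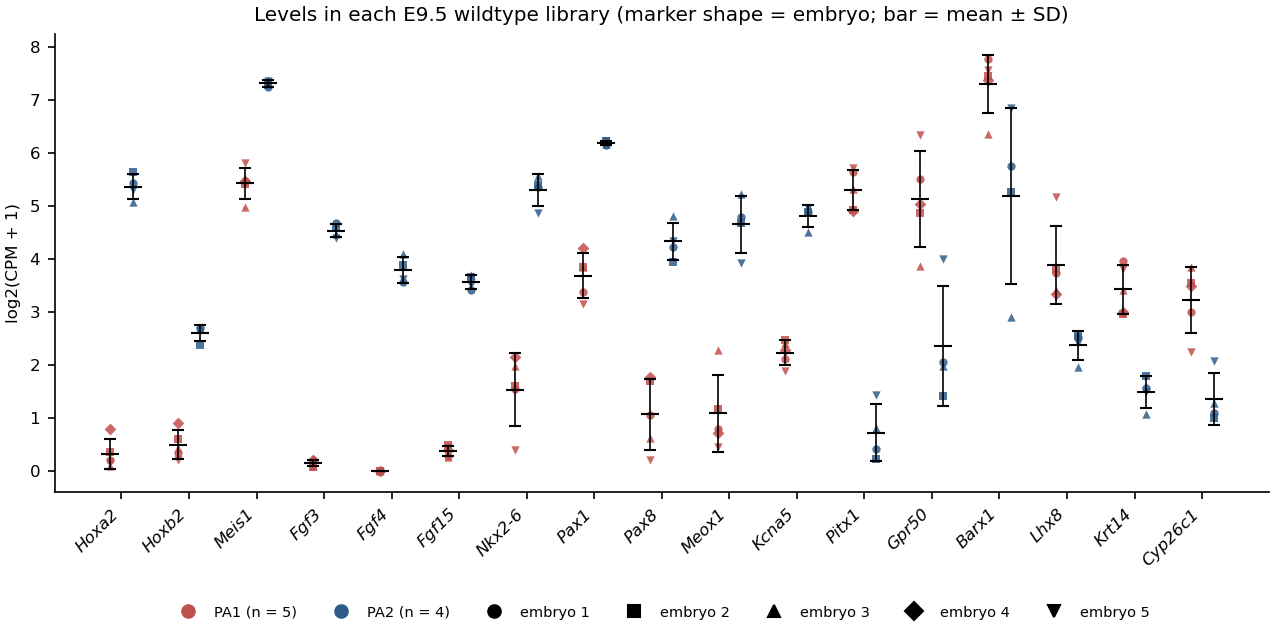
Level (y axis, log2(CPM + 1)) of 17 genes in each library, with PA1 in red, PA2 in blue, marker shape for the embryo, and bars for the mean and SD. The 11 genes on the left sit higher in PA2 and the 6 on the right lower, with Barx1 and Gpr50 overlapping between the arches.

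The neighbouring FGF ligand genes Fgf3, Fgf4 and Fgf15 on chromosome 7 were among the 12 largest differences in favour of PA2. FGF ligands are secreted growth factors that ectoderm and endoderm send to the arch mesenchyme. Fgf3 (chr7:144838083-144844436, plus strand) was at 0.156, 0.0570, 0.0683, 0.160 and 0.106 CPM in PA1 and at 24.7, 23.1, 21.3 and 20.2 CPM in PA2 (4.39 ± 0.28, adjusted p = 9.5e-19). Fgf4 (chr7:144847367-144865243, plus strand) had no read in any PA1 library and 10.9, 13.7, 16.2 and 11.4 CPM in PA2 (3.80 ± 0.31, adjusted p = 1.4e-14). Against the highest floor of 3 reads in a PA1 library, 0.240 CPM, its mean was at least 54.2-fold higher in PA2. Fgf15 (chr7:144896531-144900953, plus strand) was at 0.208, 0.399, 0.205, 0.321 and 0.371 CPM in PA1 and at 9.62, 11.7, 11.99 and 10.4 CPM in PA2 (3.20 ± 0.26, adjusted p = 2.4e-14), and it overlaps the antisense transcript Gm26793, whose reads cannot be told apart from its own. For Fgf3 every PA1 library was at or under its floor of 3 reads, while the 4 PA2 libraries of Fgf3, and those of Fgf4, lay close together.

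The neighbourhood was looked at after these values were seen. Within 300000 bases of Fgf3, the cyclin gene Ccnd1 was lower in PA2 (-0.72 ± 0.21, adjusted p = 0.0087), with the groups overlapping and an adjusted p of 0.063 without PA1 of embryo 1. The chloride channel gene Ano1 was higher (0.80 ± 0.29, adjusted p = 0.032), but its adjusted p was 0.077 to 0.22 without any one of PA1 of embryos 1 and 3 and PA2 of embryos 3 and 5. The noncoding Bc1 was lower (-0.79, adjusted p = 0.037), and Gm26793, the transcript that overlaps Fgf15, was higher (0.61, adjusted p = 0.0049). Fadd, Ppfia1 and LTO1 did not pass.

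A list of other FGF ligands, receptors and feedback genes also holds Fgf3 and Fgf15. In it 10 of 21 tested were higher and 1 was lower, with a median of 0.39. That was a share of 52.4% beside 26.3% over all genes. Fgf3 and Fgf15, under 1 CPM in every PA1 library, could pass the filter only through other groups. The count and median are therefore not independent evidence of direction in this list. Fgf9 (1.15 ± 0.21, adjusted p = 4.9e-05), Fgf20 (0.90 ± 0.13, adjusted p = 1.3e-06), Fgf10 (0.63 ± 0.16, adjusted p = 0.0030) and Fgf18 (0.50 ± 0.15, adjusted p = 0.0084) were the other ligands that were higher, all without overlap. Genes that FGF signalling is known to switch on were partly higher. Etv4, a transcription factor, was at 5.95 to 7.36 CPM in PA1 and 12.2 to 18.2 CPM in PA2 (1.01 ± 0.19, adjusted p = 0.00010). Spry1, a feedback inhibitor, was at 54.7 to 67.6 CPM in PA1 and 109 to 134 CPM in PA2 (0.96 ± 0.20, adjusted p = 0.00043). Fgf8, a signal of the oral and pharyngeal ectoderm, was the member that was lower, at 32.6, 26.3, 24.6, 24.9 and 28.8 CPM in PA1 and 20.8, 21.3, 17.9 and 10.3 CPM in PA2 (-0.66 ± 0.20, adjusted p = 0.011). The lowest PA2 value was that of embryo 5, and the adjusted p was 0.14 without it. The other feedback and target genes Spry4, Dusp6 and Etv5 and the receptor genes Fgfr1, Fgfr2, Fgfr3 and Fgfr4 did not pass.

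Genes of the pharyngeal pouches, the outpocketings of the endoderm between the arches, were mostly higher in PA2. Of 22 tested, 17 were higher and 1 lower, a share of 81.8% beside 26.3% over all genes, with a median of 0.89. Fgf3 and Fgf15 are counted in this list too. Both were under 1 CPM in every PA1 library, so they could pass the filter only through other groups. The list was chosen with earlier results of these data known, so its count and median are not independent evidence of direction. The marker Nkx2-6 differed by 3.76 ± 0.30, adjusted p = 8.4e-15. Pax8, a paired-box factor of thyroid and otic tissue, was at 1.09, 2.22, 0.547, 2.40 and 0.159 CPM in PA1 and at 17.8, 14.5, 27.0 and 19.3 CPM in PA2 (3.26 ± 0.52, adjusted p = 5.2e-06). Pax1, a paired-box factor of the pouches, was at 9.41, 13.5, 13.4, 17.6 and 7.89 CPM in PA1 and at 69.9, 74.0, 71.4 and 74.2 CPM in PA2 (2.51 ± 0.27, adjusted p = 2.7e-10). Its relative Pax9 (1.72 ± 0.19, adjusted p = 9.8e-10) and the T-box gene Tbx1 (1.46 ± 0.25, adjusted p = 2.5e-05) were higher without overlap. Nkx2-1, a factor of thyroid and lung endoderm, varied widely at 0.468, 1.54, 0.0683, 2.65 and 0 CPM in PA1 and 7.19, 1.65, 9.55 and 10.1 CPM in PA2 (2.06 ± 0.53, adjusted p = 0.0029). Epcam, a protein of epithelial cells in general, was higher by a smaller amount (0.50 ± 0.13, adjusted p = 0.0028). The exception was Foxa2, a forkhead factor of anterior endoderm and midline, at 3.27, 2.17, 2.73, 1.68 and 2.28 CPM in PA1 and 0.514, 0.414, 0.965 and 2.07 CPM in PA2 (-0.84 ± 0.20, adjusted p = 0.0015). The list counted 12 higher without PA2 of embryo 3, 10 without PA1 of embryos 1 and 3 and 8 without PA2 of embryos 3 and 5, each with 1 lower.

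Surface epithelium genes passed in both directions. Of 20 epithelial genes 5 were higher and 4 lower, with a median of 0.09, and the summed level of the list was 1027 to 1185 CPM in PA1 and 1111 to 1373 CPM in PA2. Krt14, a keratin of basal epidermal cells, was at 14.6, 6.79, 9.64, 6.97 and 13.1 CPM in PA1 and at 1.96, 2.48, 1.12 and 1.81 CPM in PA2 (-1.94 ± 0.24, adjusted p = 1.0e-08). The other lower members were Krt17, Trp63 and Fermt1, and the higher ones were Cdh1, Cdh3, Epcam, Ovol1 and Cldn6. Outside the list, Foxi2, a forkhead factor of the ectoderm that covers the arches, was higher in PA2, at 24.7 to 49.5 CPM in PA1 and 74.1 to 77.2 CPM in PA2 (1.19 ± 0.30, adjusted p = 0.0023).

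The homeobox genes of the jaw arch had the largest differences in favour of PA1. Of 12 tested, 6 were lower in PA2 and 1 higher, with a median of -0.70. That was a share of 58.3% beside 26.3% over all genes. Without PA1 of embryos 1 and 3, 5 were lower, and without PA2 of embryos 3 and 5, 3 were. Pitx1, a factor of oral ectoderm and mandibular mesenchyme, differed by -4.58 ± 0.29, adjusted p = 9.5e-19. Barx1, a factor of the proximal mandibular mesenchyme, was at 219, 175, 81.8, 167 and 189.7 CPM in PA1 and at 53.2, 37.5, 6.50 and 114 CPM in PA2 (-2.12 ± 0.52, adjusted p = 0.0019). PA2 of embryo 3 was far below the rest, PA2 of embryo 5 was above PA1 of embryo 3, and the adjusted p was 0.056 without PA2 of embryo 3.

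Lhx8, a LIM homeobox gene of the oral mesenchyme, was at 12.3, 12.9, 9.70, 9.14 and 34.99 CPM in PA1 and at 4.81, 4.88, 2.90 and 4.35 CPM in PA2 (-1.52 ± 0.35, adjusted p = 0.00097). Otx2, a head homeobox gene, differed by -0.82 ± 0.24, adjusted p = 0.010, with an adjusted p of 0.068 without PA2 of embryo 5. Emx2 was the member that was higher in PA2, at 0.104 to 1.43 CPM in PA1 and 1.52 to 5.29 CPM in PA2 (1.35 ± 0.35, adjusted p = 0.0035), with an adjusted p of 0.067 at a pseudocount of 5. The Dlx genes pattern each arch from its base to its tip in PA1 and PA2 alike. Beside the 26.3% over all genes, 16.7% of them passed, 1 member of 6. That was Dlx6 (-0.67 ± 0.24, adjusted p = 0.030), whose adjusted p was 0.085 to 0.13 without any one of PA1 of embryos 1 and 4 and PA2 of embryos 3 and 5. The noncoding Dlx4os, named by the size of its difference (-1.60 ± 0.42, adjusted p = 0.0035), had an adjusted p of 0.052 without PA2 of embryo 3.

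Outside the homeobox genes, Gpr50, an orphan receptor gene on chromosome X, had the third largest difference in favour of PA1. It was at 44.5, 28.2, 13.7, 31.8 and 80.7 CPM in PA1 and at 3.18, 1.65, 2.95 and 15.1 CPM in PA2 (-2.76 ± 0.49, adjusted p = 3.5e-05), and embryo 5 had the highest value in both arches. Fam83f was at 9.78 to 22.2 CPM in PA1 and 3.31 to 3.83 CPM in PA2 (-1.72 ± 0.23, adjusted p = 8.6e-08). Tal2, a basic helix-loop-helix gene, was at 3.18 to 8.61 CPM in PA1 and 0.726 to 1.78 CPM in PA2 (-1.73 ± 0.23, adjusted p = 1.5e-07). Postn, which encodes the matrix protein periostin, was at 40.3 to 108 CPM in PA1 and 18.5 to 21.9 CPM in PA2 without overlap (-1.83 ± 0.63, adjusted p = 0.025), but its adjusted p was 0.051 to 0.064 without any one of PA1 of embryo 3 and PA2 of embryos 3 and 5. Npm3, a nucleophosmin relative, was at 30.6, 7.07, 31.9, 11.3 and 7.09 CPM in PA1 and at 3.78, 5.38, 2.64 and 4.25 CPM in PA2 (-1.64 ± 0.33, adjusted p = 0.00019). PA1 of embryos 1 and 3 lay far above the other libraries, and without both the adjusted p was 0.056.

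Of 10 ectomesenchyme factors, which maintain crest-derived mesenchyme, 3 were lower in PA2 and none higher, a share of 30.0% near the 26.3% over all genes, and 1 was lower without PA2 of embryos 3 and 5. Tfap2c (-1.03 ± 0.16, adjusted p = 3.4e-06) and Sox9, the master factor of cartilage (-0.71 ± 0.18, adjusted p = 0.0030), did not overlap. Tfap2b differed by -0.64 ± 0.20, adjusted p = 0.014, with an adjusted p of 0.089 without PA1 of embryo 3 and 0.058 without PA2 of embryo 1. Prrx1, a homeobox gene of mesenchyme, was at 92.2 to 160.3 CPM in PA1 and 53.5 to 69.2 CPM in PA2 (-0.90 ± 0.20, adjusted p = 0.00097). In the same mesenchyme list Eya1 (0.76 ± 0.10, adjusted p = 1.6e-07), Alx4 (0.91 ± 0.27, adjusted p = 0.0090) and Six2 (0.97 ± 0.29, adjusted p = 0.0089) were higher in PA2. Alx4 overlapped between the arches, and in embryo 5 it was at 8.95 CPM in PA1 and 8.81 CPM in PA2. Its adjusted p was 0.053 after the length and GC correction. Without PA1 of embryos 1 and 3 that p was 0.20, and without PA2 of embryos 3 and 5 it was 0.067. The forkhead gene Foxf1 was lower (-1.48 ± 0.42, adjusted p = 0.0065), with groups that overlapped through PA2 of embryo 5 and an adjusted p of 0.075 with the compared groups alone, and Foxl2 was higher (0.88 ± 0.17, adjusted p = 8.4e-05).

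Meox1, a homeobox gene known as a direct target of Hoxa2, was at 0.728, 1.25, 3.90, 0.641 and 0.371 CPM in PA1 and at 26.8, 24.6, 36.6 and 14.2 CPM in PA2 (3.57 ± 0.35, adjusted p = 1.1e-11). Kcna5 (chr6:126532551-126535412, minus strand), which encodes a voltage-gated potassium channel, was at 3.33, 4.56, 4.31, 3.85 and 2.70 CPM in PA1 and at 28.6, 28.7, 21.8 and 30.1 CPM in PA2 (2.58 ± 0.18, adjusted p = 1.3e-16). Meox1 and Kcna5 belong to a list of 10 adhesion, channel and other genes linked to Hoxa2 in earlier results of these libraries, so that the count of 5 higher and 1 lower is not independent evidence of direction. The other higher members were Vcam1, Kcna1 and Bmper. The integrin gene Itga4 was the one lower (-1.04 ± 0.18, adjusted p = 2.2e-05), while Vcam1, which encodes a ligand of the integrin it is part of, differed by 0.85 ± 0.25, adjusted p = 0.010, with an adjusted p of 0.054 without PA2 of embryo 5. Zfp503, a zinc finger repressor, was higher without overlap (0.87 ± 0.18, adjusted p = 0.00036).

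**Figure D4:**
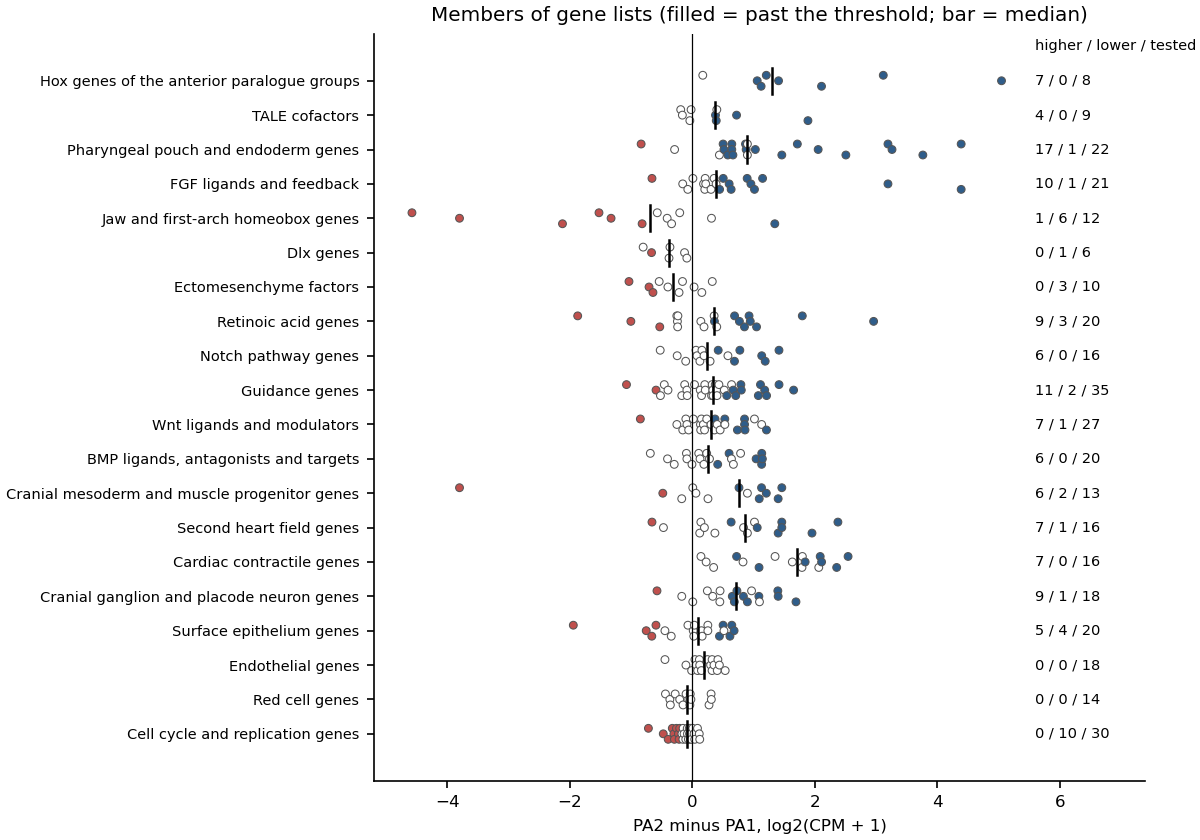
Arch difference (x axis, PA2 minus PA1 on the log2(CPM + 1) scale) of each tested member of 20 gene lists, filled where past the threshold, with a bar at the median and the counts of members higher, lower and tested at the right. Hox and pouch genes lie mostly to the right of 0, jaw homeobox genes to the left, and no endothelial or red cell gene is filled.

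Retinoic acid is a derivative of vitamin A that activates anterior Hox genes. Of 20 genes of its pathway 9 were higher in PA2 and 3 lower, a share of 60.0% beside 26.3% over all genes. The lower ones were Cyp26a1, Cyp26c1 and Rarg. Rarres1, a gene that responds to retinoic acid, was at 0.416, 0.513, 1.57, 0.481 and 0.159 CPM in PA1 and at 11.0, 11.0, 6.86 and 18.6 CPM in PA2 (2.96 ± 0.32, adjusted p = 2.9e-10). Cyp26b1, an enzyme that breaks retinoic acid down, was at 0.0529 to 0.684 CPM in PA1 and 2.13 to 4.63 CPM in PA2 (1.80 ± 0.24, adjusted p = 9.8e-08). Its relative Cyp26c1 went the other way, at 6.97, 10.8, 13.5, 10.3 and 3.76 CPM in PA1 and 1.12, 0.993, 1.42 and 3.21 CPM in PA2 (-1.87 ± 0.35, adjusted p = 8.8e-05), and the lowest PA1 value was that of embryo 5. Rdh10, which makes retinaldehyde, the precursor of retinoic acid (0.93 ± 0.14, adjusted p = 2.4e-06), and Stra6, the retinol uptake receptor (0.85 ± 0.18, adjusted p = 0.00051), were higher in PA2. The most abundant member that was higher was Crabp1, which binds retinoic acid inside the cell, at 296, 268, 462, 348 and 218 CPM in PA1 and 623, 699.8, 724 and 396 CPM in PA2 (0.95 ± 0.19, adjusted p = 0.00022).

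Notch genes that passed were all higher in PA2, 6 of 16 tested, a share of 37.5% beside 26.3% over all genes. The ligand gene Jag1 was at 20.8 to 39.1 CPM in PA1 and 69.9 to 85.9 CPM in PA2 (1.42 ± 0.22, adjusted p = 2.9e-06). The target genes Hey1 (1.13 ± 0.16, adjusted p = 8.1e-07) and Heyl (1.19 ± 0.24, adjusted p = 0.00024) were higher too and did not overlap between the arches. Dll4, Notch1 and the fringe gene Rfng were the other 3, and under the length and GC correction 3 of the list were higher and 1 lower. Among 35 guidance genes, 11 were higher and 2 lower, a share of 37.1%. The 3 Slit genes, which encode secreted repellents, were all higher. Slit2 was at 12.8 to 24.4 CPM in PA1 and 48.9 to 67.4 CPM in PA2 (1.65 ± 0.21, adjusted p = 4.0e-08), and Slit1 (1.42 ± 0.29, adjusted p = 0.00028) and Slit3 (1.21 ± 0.23, adjusted p = 9.9e-05) did not overlap either. The semaphorin genes Sema3e (-1.08 ± 0.36, adjusted p = 0.021) and Sema3a (-0.59 ± 0.18, adjusted p = 0.012) were the 2 lower members. Their adjusted p-values were 0.070 and 0.075 without PA2 of embryo 3; that of Sema3e was 0.062 without PA2 of embryo 1, and that of Sema3a 0.056 without PA1 of embryo 5.

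Wnt genes had 7 of 27 members higher and 1 lower, near the share over all genes. Wnt9b was at 4.17 to 11.9 CPM in PA1 and 12.3 to 21.01 CPM in PA2 (1.21 ± 0.21, adjusted p = 3.2e-05). Wnt4 was the lower member, at 23.1 to 26.3 CPM in PA1 and 11.5 to 15.1 CPM in PA2 (-0.85 ± 0.19, adjusted p = 0.00091). In the BMP list 6 of 20 were higher and none lower, a share of 30.0% near that over all genes; without PA1 of embryos 1 and 3 the list counted 3 higher and 1 lower, and without PA2 of embryos 3 and 5, 2 higher. Among the 6 were the antagonist gene Grem1 (1.14 ± 0.19, adjusted p = 1.1e-05) and the inhibitory Smad6 (1.13 ± 0.24, adjusted p = 0.00049). Of 10 genes of the endothelin signal, which gives lower-jaw identity, Edn1 (0.75 ± 0.24, adjusted p = 0.018), its receptor gene Ednra (0.50 ± 0.17, adjusted p = 0.023) and Plcb3 (0.45 ± 0.13, adjusted p = 0.0075) were higher, a share of 30.0% near that over all genes. None of the 10 passed without PA2 of embryo 3, and 1 was higher and 1 lower after the length and GC correction. Without PA1 of embryo 5 Edn1 did not pass (adjusted p = 0.051), without PA1 of embryo 1 Ednra (0.060) and without PA2 of embryo 5 Plcb3 (0.063). Cxcl12, a chemokine gene, was at 71.4 to 104.6 CPM in PA1 and 144 to 203 CPM in PA2 (0.89 ± 0.11, adjusted p = 4.6e-08), and the gene of its receptor, Cxcr4, was higher too (0.77 ± 0.19, adjusted p = 0.0017). Cdh13, a cadherin without a transmembrane part, was at 0.410 to 1.202 CPM in PA1 and 5.599 to 9.09 CPM in PA2 (2.17 ± 0.18, adjusted p = 4.5e-14). Among 26 collagen and laminin genes 9 were higher and none lower, a share of 34.6% beside 26.3% over all genes. The largest differences were those of Col12a1 (1.69 ± 0.33, adjusted p = 0.00012, and 0.056 without PA2 of embryos 3 and 5) and Col14a1 (1.49 ± 0.28, adjusted p = 8.7e-05). That list counted 5 higher without PA2 of embryo 3, and 4 higher and 1 lower after the length and GC correction. It counted 2 higher and 1 lower without PA1 of embryos 1 and 3, and 1 and 1 without PA2 of embryos 3 and 5.

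Genes of the arch mesoderm were partly higher in PA2. Of 13 tested, 6 were higher and 2 lower, a share of 61.5% beside 26.3% over all genes. Isl1, a LIM homeobox gene of cardiac and pharyngeal progenitors that also marks cranial sensory neurons, was at 36.4, 33.1, 33.4, 41.1 and 24.5 CPM in PA1 and at 72.0, 80.1, 119 and 93.2 CPM in PA2 (1.40 ± 0.17, adjusted p = 5.7e-09). The branchiomeric muscle factors Tcf21 (1.21 ± 0.23, adjusted p = 0.00011) and Lhx2 (1.13 ± 0.27, adjusted p = 0.0014) and the early myogenic gene Myf5 (1.09 ± 0.21, adjusted p = 9.2e-05) were higher without overlap. Myod1, a muscle determination gene at a low level, was among the lower members (-0.48 ± 0.16, adjusted p = 0.020). It had an adjusted p of 0.12 without PA1 of embryo 3 and 0.062 without PA2 of embryo 3.

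Second heart field genes, expressed in the progenitors that build the outflow tract next to the arches, had 7 of 16 members higher and 1 lower. Isl1, Fgf10, Tbx1, Hoxb1 and the lower Fgf8 are counted in lists above as well. Gata5 was at 3.12, 10.7, 4.51, 11.8 and 0.794 CPM in PA1 and at 21.4, 18.7, 61.3 and 27.3 CPM in PA2 (2.38 ± 0.55, adjusted p = 0.0011), and Gata6 followed (1.95 ± 0.56, adjusted p = 0.0071). Without PA2 of embryos 3 and 5 their adjusted p-values were 0.099 and 0.26, and without PA1 of embryos 1 and 3 that of Gata6 was 0.088. The list counted 3 higher and none lower without the former pair, and 5 and none without the latter. Beside these counts stands the level of heart muscle RNA. The cardiac contractile genes summed to 9.11 to 249 CPM in the PA1 libraries and to 75.5, 92.3, 1201 and 276 CPM in PA2. Of 16 tested, 7 were higher, a share of 43.75% beside 26.3% over all genes, and no member was free of overlap between the arches. Without PA1 of embryos 1 and 3, 2 were higher, and without PA2 of embryos 3 and 5 none passed. Without PA2 of embryo 3, 1 was higher, and with the embryo as a block 12 were. Myh7, a myosin of heart muscle, was at 2.50, 15.6, 3.01, 27.2 and 1.85 CPM in PA1 and at 10.7, 11.2, 243 and 50.9 CPM in PA2 (2.36 ± 0.80, adjusted p = 0.023), and its adjusted p was 0.23 without that library and 0.062 to 0.072 without any one of PA1 of embryos 1, 3 and 5 and PA2 of embryo 5. Tnni1 (2.54 ± 0.63, adjusted p = 0.0021), Ttn (2.09 ± 0.61, adjusted p = 0.0086) and the muscle chaperone gene Unc45b (2.67 ± 0.74, adjusted p = 0.0058) had adjusted p-values of 0.028, 0.13 and 0.064 without PA2 of embryo 3. Without PA2 of embryos 3 and 5 these were 0.15, 0.39 and 0.33. Without PA1 of embryos 1 and 3 those of Ttn and Unc45b were both 0.11. The part of heart muscle in the other differences was not tested; without PA2 of embryo 3, 354 of the 404 genes with a difference of at least 1 passed in the same direction.

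Genes of blood, vessels and yolk sac did not pass by limma or edgeR. No red cell gene passed of 14 tested, at a summed 2789 to 3972 CPM in PA1 and 2434 to 5460 CPM in PA2, nor did any of 12 yolk sac endoderm genes, whose sums stayed under 5 CPM. Of 12 tested macrophage genes none passed, and the 13 measured ones summed to 1.92 to 10.52 CPM in PA1 and 2.101 to 4.30 CPM in PA2. None of 18 endothelial genes passed by limma, at a summed 400.1 to 533 CPM in PA1 and 478 to 600.1 CPM in PA2, although 4 were higher with the embryo as a block. At an unadjusted p under 0.05, 3 endothelial genes were higher and 1 lower, and 0 of the other 3 lists were.

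Cranial ganglion and placode neuron genes had 9 of 18 tested members higher and 1 lower, a share of 55.6% beside 26.3% over all genes. The 20 measured members summed to 150.5 to 196 CPM in PA1 and 206 to 287 CPM in PA2. Neurog2, a factor of placode-derived neuron precursors, was at 0.0520, 0, 0.137, 0.0802 and 0.0529 CPM in PA1 and at 2.05, 0.827, 5.59 and 2.80 CPM in PA2 (1.69 ± 0.47, adjusted p = 0.0055). Nefm, a neurofilament gene, followed (1.40 ± 0.36, adjusted p = 0.0033), while Gap43, a growth cone gene, was lower (-0.58 ± 0.12, adjusted p = 0.00050). Without PA2 of embryo 3, 4 members were higher and 1 lower, and without PA1 of embryos 1 and 3 the counts were the same. Without PA2 of embryos 3 and 5, 1 was higher and none lower. The adjusted p was then 0.26 for Neurog2, 0.25 for Nefm and 0.052 for Gap43. That of Nefm was 0.058 without PA1 of embryos 1 and 3. Of 10 crest and glial genes Erbb3, Ets1, Kit and Mitf were higher, a share of 40.0% beside 26.3% over all genes. Erbb3, the receptor gene of glial precursors, was at 11.5 to 21.4 CPM in PA1 and 29.7 to 53.7 CPM in PA2 (1.14 ± 0.22, adjusted p = 0.00013). Klhdc8a, a kelch domain gene, was at 0.468 to 1.06 CPM in PA1 and 6.53 to 14.9 CPM in PA2 (2.79 ± 0.30, adjusted p = 1.7e-10), and Ctxn3, a cortexin gene, at 0 to 1.12 CPM in PA1 and 4.87 to 11.3 CPM in PA2 (2.65 ± 0.41, adjusted p = 2.4e-06).

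Among 30 cell cycle and replication genes 10 were lower in PA2 and none higher, a share of 33.3% beside 26.3% over all genes. The median was -0.10, and these were small differences at high levels. Ccne1, the cyclin of S phase entry, was at 256 to 325 CPM in PA1 and 186 to 231 CPM in PA2 (-0.47 ± 0.11, adjusted p = 0.0015), and Pcna, the replication clamp, differed by -0.39 ± 0.09, adjusted p = 0.00050. The list counted 3 lower without PA1 of embryos 1 and 3 and none without PA2 of embryos 3 and 5. The most abundant genes past the threshold likewise differed little. Maged1 was higher (0.29 ± 0.07, adjusted p = 0.0021), but its adjusted p was 0.12 after the length and GC correction. Eif5a, a translation factor gene, was lower (-0.37 ± 0.10, adjusted p = 0.0043). Ldha, which encodes lactate dehydrogenase (-0.38 ± 0.13, adjusted p = 0.028), and Hsp90ab1, which encodes a chaperone (-0.28 ± 0.09, adjusted p = 0.016), were lower with adjusted p-values up to 0.21 and 0.065 when PA2 of embryo 5 or PA1 of embryo 3, respectively, was left out; without any one of PA1 of embryos 1 and 3 and PA2 of embryo 5 neither passed, nor did Hsp90ab1 without PA2 of embryo 3. Among 25 glycolysis and hypoxia genes Hk1 and Aldoc were higher, and Ldha, Gapdh, Pgk1 and Tpi1 were lower, a share of 24.0% near the 26.3% over all genes. With the embryo as a block 3 were higher and 9 lower, and after the length and GC correction 2 and 10. Without PA1 of embryos 1 and 3, 1 was higher and none lower, and without PA2 of embryos 3 and 5 none passed. Of the 13 protein genes of the mitochondrial genome mt-Co1 and mt-Nd2 were lower. The first differed by -0.39 ± 0.13, adjusted p = 0.019, and its adjusted p was 0.10 without PA2 of embryo 3, 0.050 without PA1 of embryo 3 and 0.16 after the length and GC correction. With the embryo as a block 9 of the 13 were lower. None was lower after the length and GC correction, without PA2 of embryo 3, or without either pair of libraries that stood apart.

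The arch difference at E9.5 was set against the stages on either side, each measured in other embryos. At E9.0, with 5 PA1 and 4 PA2 libraries, 3454 genes passed (18.7%), at E10.0, with 5 and 5, 1095 (5.94%), and at E10.5, with 3 and 3, 280 (1.52%). Of the 404 genes past the threshold and a difference of at least 1 at E9.5, 314 passed in the same direction at E9.0, 256 at E10.0 and 60 in the E10.5 libraries. From E9.0 to E10.5, by stage, the difference of Hoxa2 was 4.39, 5.05, 5.38 and 5.33, and that of Pitx1 was -3.90, -4.58, -4.68 and -4.93. Fgf4 went from 4.13 over 3.80 and 2.52 to 0.03, and Pax8 from 4.18 over 3.26 and 3.02 to 0.22; neither passed at E10.5.

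**Figure D5:**
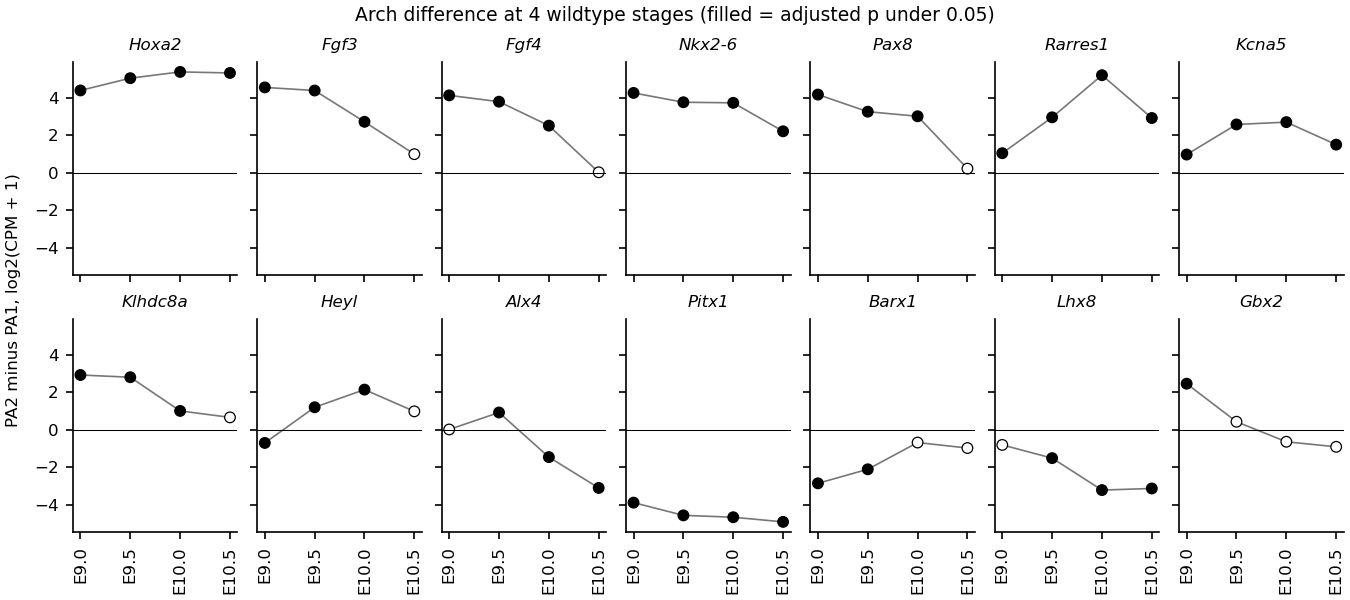
Arch difference (y axis, PA2 minus PA1 on the log2(CPM + 1) scale) of 14 genes at 4 wildtype stages (x axis), filled where the adjusted p was under 0.05, each stage from its own embryos. Hoxa2 and Pitx1 keep their direction at all 4 stages, and Alx4 is above 0 at E9.5 and below it at E10.0.

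The change between stages was tested as a difference of differences; both tests use the E9.5 libraries. Against E10.0, 27 genes passed (0.147%), 20 with a more positive and 7 with a more negative difference at E9.5, and 64 did with the embryo as a block. Alx4 was higher in PA2 at E9.5 (0.91) and lower at E10.0 (-1.47), a change of 2.38 ± 0.37 (adjusted p = 0.00011). Chrna6, an acetylcholine receptor gene, changed from 0.23 to -1.59 (adjusted p of the change 0.0026), and Fgf3 from 4.39 to 2.72 (adjusted p of the change 0.048). That of Fgf3 passed with 2 of the 9 libraries left out in turn; its adjusted p was 0.37 with a pseudocount of 0.25, and by edgeR the change had the opposite sign (-1.91, adjusted p = 0.77). Rarres1 moved the other way, from 2.96 at E9.5 to 5.21 at E10.0 (adjusted p of the change 0.0066, 0.051 without PA2 of embryo 3 and 0.11 by edgeR). The noncoding Foxd2os was at -0.26 at E9.5, where it did not pass, and at 0.66 at E10.0 (adjusted p of the change 0.016, 0.075 without PA1 of embryo 3 and 0.067 without PA2 of embryo 3).

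Against E9.0, 1891 genes passed (10.3%), 856 with a more positive and 1035 with a more negative difference at E9.5, and 3281 did with the embryo as a block. This count moved with the libraries that stood apart: it was 30 without PA1 of embryos 1 and 3, 59 without PA2 of embryos 3 and 5, and 574 after the length and GC correction, and the length trend had the opposite sign at E9.0. Heyl was lower in PA2 at E9.0 (-0.71) and higher at E9.5 (1.19), a change of 1.90 ± 0.34 (adjusted p = 0.0013). Gbx2, a homeobox gene of the hindbrain boundary and early arches, was higher in PA2 at E9.0 (2.45) and at 0.42 at E9.5, where it did not pass, a change of -2.03 ± 0.32 (adjusted p = 0.00017). Tmem132c, a membrane protein gene, changed by 1.79 ± 0.26 (adjusted p = 5.3e-05), from -1.39 to 0.40; at E9.5 its arch difference had an adjusted p of 0.10, and 0.037 with the embryo as a block. The difference of Kcna5 went from 0.97 to 2.58 (adjusted p of the change 0.00022), and Fgf8 went from 0.62 to -0.66 (adjusted p of the change 0.0073). The adhesion gene L1cam changed by 2.13 ± 0.57 (adjusted p = 0.018, and 0.053 without PA1 of embryo 1). The ephrin receptor gene Epha3, at 30.7, 37.2, 23.0, 28.6 and 32.2 CPM in PA1 and 40.6, 41.4, 13.6 and 63.6 CPM in PA2, did not pass at E9.5 (0.21 ± 0.36, adjusted p = 0.72) and changed by 2.34 ± 0.51 (adjusted p = 0.0065). Npm3 changed by -1.70 ± 0.46 (adjusted p = 0.020), and its adjusted p was 0.060 without PA1 of embryo 1, 0.063 without PA1 of embryo 3 and 0.051 without PA2 of embryo 3. Hspb1, a small heat shock protein gene, was higher in PA2 at E9.0 (2.52) and did not pass at E9.5 (0.58 ± 0.40, adjusted p = 0.30), and its change of -1.94 ± 0.57 had an adjusted p of 0.026. That p was 0.054 with the embryo as a block, and 0.053 to 0.057 without any one of PA1 of embryo 1 and PA2 of embryos 1 and 2. The noncoding Hand2os1, a neighbour of Hand2, went from 1.08 to -0.58 (adjusted p of the change 0.013).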

How the data were processed

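RNA of dissected arches was made into SMART-seq v4 and Nextera XT libraries, per the labels' protocols; these kits add no molecular identifiers. The submitters' processing notes name bcl2fastq 2.18, TopHat2 2.1.1, R 3.3.2 and mm10, with no role or order. The counting program, annotation and use of strand are not given in the sources used here. The authors deposited 1 table of 21948 genes in 68 libraries, whose signal values are read counts divided by a scaled library size, here called CPM. Column totals ran from 926298 to 1051959, so the values are not plain CPM as the planned design assumed; the tests were kept as planned. All values (100%) came out as whole reads within 0.001 read, which gave each library's depth. Of the identifiers, 21921 were given symbols and coordinates from the GENCODE annotation of GRCm38 (mm10); promoter sequences and gene starts came from RefSeq.

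From these values log2(CPM + 1) was computed, and limma 3.58.1 (R 4.3.3) was fitted with 1 mean per group over all 68 libraries and a trended prior variance. Genes with at least 1 CPM in at least 3 libraries were kept, 18428 in all. P-values are two-sided and were adjusted by the Benjamini-Hochberg method, with a threshold of 0.05. A count test on the recovered reads (edgeR 4.0.16, quasi-likelihood) called 4789 genes, 26.0%, of which 4477 were shared in direction with limma. Alternatives were other pseudocounts, filters and scalings, the compared groups alone, an embryo block, edgeR and each library left out. A length and GC correction, alone and with the block, and the omission of PA1 of embryos 1 and 3 or of PA2 of embryos 3 and 5 were added after seeing the data. The scripts were tested on simulated data.

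Both arches came from single embryos, per the series' design text, so equal numbers pair the libraries. Deviations from the group means correlated at 0.47, -0.08, 0.02 and 0.48 within embryos 1, 2, 3 and 5, and at -0.41 to 0.24 between embryos; genes were the points. No 2 libraries of a group agreed within sampling noise (chi-square per degree of freedom 7.37 to 36.6).

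Named genes were the 12 largest differences and the 3 most abundant genes in each direction (past the threshold, same sign in all 4 embryos, mean of at least 5 CPM, no provisional names), up to 3 genes of a list beside its defining genes, and up to 5 in each direction per stage comparison; some genes that this rule names are not reported here. Members and lists were chosen with earlier results of these data known, and some genes of the Fgf3 neighbourhood after their values were seen. The floor of 3 reads covers counting error only.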

Additional observations from a re-analysis of the deposited data

Results flagged for a closer look

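Of 244 groups of 4 or 5 values tested with Dixon's criterion, 11 held a value far from the rest, about as many as the 1 in 20 that chance gives. PA2 of embryo 3 was low for Kcna5 (21.8 CPM). PA2 of embryo 5 was low for Fgf10 (19.1 CPM) and Edn1 (25.5 CPM), and PA2 of embryo 1 was high for Alx4 (12.3 CPM) and low for Col14a1 (3.36 CPM). PA2 of embryo 2 had the highest summed red cell genes of its group (5460 CPM) and the lowest summed endothelial genes (478 CPM). In PA1, embryo 3 was low for Barx1 (81.8 CPM) and Gbx2 (1.98 CPM), embryo 5 high for Lhx8 (34.99 CPM), and embryo 2 low for mt-Co1 (802.0 CPM).

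The arch difference at E9.5 differed from that at another stage, by a test of the difference itself in limma, for the genes that follow; values are E9.5 minus the other stage on the log2 scale. Against E9.0 it was more positive for Epha3 (2.34), L1cam (2.13), Rarres1 (1.92), Heyl (1.90), Tmem132c (1.79), Kcna5 (1.61), Vcam1 (1.46), Erbb3 (0.93), Slit2 (0.90), Sox9 (0.87), Wnt4 (0.84), Foxd2os (0.81), Hoxaas2 (0.71), Eya1 (0.48) and Meis2 (0.43). It was more negative for Gbx2 (-2.03), Hspb1 (-1.94), Npm3 (-1.70), Hand2os1 (-1.66), Fgf8 (-1.28), Cdh13 (-0.76), Isl1 (-0.70), mt-Co1 (-0.56) and Pcna (-0.45). Against E10.0 it was more positive for Alx4 (2.38), Chrna6 (1.82), Klhdc8a (1.80) and Fgf3 (1.67), and more negative for Rarres1 (-2.25) and Foxd2os (-0.91). The change of Klhdc8a had an adjusted p of 0.046, and of 0.051 to 0.15 in 7 of the 9 fits that left out 1 library, 0.25 with edgeR, 0.17 with a pseudocount of 0.25 and 0.11 after the length and GC correction. Under every alternative run, 4 of the 24 changes against E9.0 (Gbx2, Heyl, Kcna5 and Tmem132c) and 2 of the 6 against E10.0 (Alx4 and Chrna6) passed. Over all genes 1891 differed from E9.0 and 27 from E10.0. The former count was 30 without PA1 of embryos 1 and 3.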

How the results depend on the processing

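Of 4854 genes past the threshold, leaving out 1 library at a time gave 2929 to 5520, with 1450 to 2678 higher and 1479 to 2842 lower; the lowest count was without PA2 of embryo 3. The compared groups alone gave 3248, with 1699 higher and 1549 lower. Without PA1 of embryos 1 and 3, 1758 passed (1098 higher, 660 lower), and without PA2 of embryos 3 and 5, 848 (586 and 262). The replicate block gave 5946. The 1891 genes of the stage comparison with E9.0 became 857 with the compared groups alone, 3281 with the replicate block, 574 with the length and GC correction, 30 and 59 without these pairs of libraries, and 428 (without PA1 of embryo 3) to 3164 (without PA1 of embryo 2) with 1 library left out. The 27 of the comparison with E10.0 became 15 and 41 with pseudocounts of 0.25 and 5, 7 with edgeR, 64 with the replicate block, 60 with the block and the length and GC correction, 13 and 15 without these pairs, and 13 to 42 with 1 library left out. The cause of these shifts was not tested. Epha3, at 0.21 with all libraries, ran from -0.071 without PA2 of embryo 5, where it reversed, to 0.65 without PA2 of embryo 3, and Hspb1 reversed to -0.34 without PA2 of embryos 3 and 5; neither had passed. Among the 116 genes followed one by one, the replicate block moved the call of the arch difference of Tmem132c alone. It also moved the calls of the stage changes of Cdh13, Eya1, Hspb1 and Isl1, and, outside the 116, that of the arch difference of Pbx4. The stage change of Fgf3 against E10.0 reversed with edgeR (-1.91). Of 109 genes past the threshold that were followed one by one, 61 stayed past it under every alternative run. The replicate block and edgeR lost none of the 109, the length and GC correction 7, leaving out 1 library 23, the pair from PA1 27 and the pair from PA2 45. Both pairs lost Pknox1, Fgf8, Ccnd1, Ano1, Nkx2-1, Otx2, Dlx6, Postn, Unc45b, Alx4, Six2, Tfap2b and Sema3e. They also both lost Smad6, Myod1, Gata6, Ttn, Myh7, Nefm, Ccne1, Ldha, Hsp90ab1, Eif5a, Ednra, Plcb3 and mt-Co1. The PA2 pair further lost Hoxb1, Foxi2, Barx1, Lhx8, Emx2, Sox9, Stra6, Sema3a, Vcam1, Gata5, Tnni1, Neurog2, Gap43, Erbb3, Pcna, Maged1, Edn1, Col12a1 and L1cam. Only the pair from PA1 lost Npm3. Some genes named only as list members are outside the 109. Of these, Dll4, Notch1, Rfng and mt-Nd2 did not keep their calls after the length and GC correction. The depth limits values under 0.140 to 0.248 CPM, a floor of 3 reads.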
